A study of Mus musculus with 9 samples.

Results

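The 40 genes described here are a list of mitosis genes, taken by name from a table of 12550 genes that the authors deposited, and all 40 were found in it. They were read in 9 RNA-seq libraries of mouse embryonic fibroblasts (MEFs; strain C57Bl/6cJ) on their way to induced pluripotent cells, transfected in every arm with plasmids for Oct4, Sox2, Klf4 and c-Myc and grown in embryonic stem cell medium with LIF. The arms differed in a short hairpin RNA, carried by pretroSuper constructs: 1 arm had a hairpin against Hnrnpk, an RNA-binding protein, 1 a hairpin against the long non-coding RNA lincRNA-p21 (gene Trp53cor1), and the control arm a hairpin against luciferase, which mouse cells lack. Each arm had 1 library on each of days 6, 9 and 12, labelled as merged replicates, so the spread between replicates of an arm and day could not be measured. The cells are labelled as partially reprogrammed and were not described as sorted, so each library is a bulk mixture in which fewer cells of a type and less RNA per cell cannot be told apart.

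Cells enter mitosis when cyclin B and Cdk1 form an active kinase, and they leave it when the anaphase-promoting complex marks cyclin B and securin for destruction. In between, Aurora and Polo-like kinases, the chromosomal passenger complex, kinetochore proteins and motors build the spindle and attach the chromosomes, a checkpoint delays anaphase until they are attached, and a further set of motors divides the cell. The transcripts of most of these proteins accumulate late in the cell cycle, through the MuvB complex with B-Myb and FoxM1, and fall in resting cells, so they are widely read as a sign of proliferation. In reprogramming fibroblasts, fast division is a known feature of the early response to the factors and of the pluripotent cells that come out of it.

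Late cell cycle genes are known for a promoter layout of CCAAT boxes, bound by NF-Y, and a cell cycle genes homology region (CHR), bound by MuvB. Promoter windows from RefSeq (GRCm38.p6, 250 bases before to 50 after each annotated start) were at hand for 33 of the 40 genes, in 35 windows, since Ect2 and Prc1 had 2 each. None was at hand for Ccna2, Aurkb, Kif20a, Tpx2, Cdc25c, Incenp and Foxm1. The 5 windows below are the first in a fixed list of genes that hold both motifs, so they do not show how common the layout is. Ccnb1, first in that list, was passed over because its window held no match to the CHR. The 5 genes are 2 partners of the entry kinase, 2 mitotic kinases and an activator of the anaphase-promoting complex. Capitals mark CCAAT, written ATTGG where it lies on the opposite strand, and the CHR as TTTGAA; the gene strand is printed 5′ to 3′.
Ccnb2 (chr9:70421505-70421804, minus strand): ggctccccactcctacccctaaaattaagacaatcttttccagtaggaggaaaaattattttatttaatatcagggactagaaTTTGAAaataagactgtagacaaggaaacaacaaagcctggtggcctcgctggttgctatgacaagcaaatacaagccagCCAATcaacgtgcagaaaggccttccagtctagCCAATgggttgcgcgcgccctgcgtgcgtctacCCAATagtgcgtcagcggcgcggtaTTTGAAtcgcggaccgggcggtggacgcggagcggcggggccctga
Cdk1 (chr10:69352863-69353162, minus strand): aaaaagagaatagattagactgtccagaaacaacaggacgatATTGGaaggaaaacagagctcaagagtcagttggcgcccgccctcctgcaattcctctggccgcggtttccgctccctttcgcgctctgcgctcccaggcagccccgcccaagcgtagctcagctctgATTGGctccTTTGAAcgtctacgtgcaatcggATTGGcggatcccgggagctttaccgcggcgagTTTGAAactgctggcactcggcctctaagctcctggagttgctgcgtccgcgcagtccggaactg
Plk1 (chr7:122159185-122159484, plus strand): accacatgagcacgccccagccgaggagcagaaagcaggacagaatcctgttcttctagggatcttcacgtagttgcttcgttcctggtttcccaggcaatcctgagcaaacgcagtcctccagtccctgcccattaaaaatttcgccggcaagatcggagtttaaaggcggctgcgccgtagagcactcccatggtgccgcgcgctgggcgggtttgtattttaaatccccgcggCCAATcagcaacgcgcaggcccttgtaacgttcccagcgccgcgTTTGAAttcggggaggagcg
Cdc20 (chr4:118437294-118437593, minus strand): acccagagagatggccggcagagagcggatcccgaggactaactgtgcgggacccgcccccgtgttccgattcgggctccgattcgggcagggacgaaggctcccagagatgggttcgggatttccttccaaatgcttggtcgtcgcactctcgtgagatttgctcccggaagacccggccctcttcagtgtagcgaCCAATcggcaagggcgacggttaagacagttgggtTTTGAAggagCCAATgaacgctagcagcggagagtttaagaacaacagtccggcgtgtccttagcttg
Aurka (chr2:172370521-172370820, minus strand): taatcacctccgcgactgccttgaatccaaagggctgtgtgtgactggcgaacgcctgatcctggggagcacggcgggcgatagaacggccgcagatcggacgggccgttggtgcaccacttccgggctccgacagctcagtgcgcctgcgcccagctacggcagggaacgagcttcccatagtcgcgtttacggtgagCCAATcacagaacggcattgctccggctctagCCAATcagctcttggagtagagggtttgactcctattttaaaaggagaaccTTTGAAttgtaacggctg

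A CHR, searched as TTTGAA or TTCGAA on either strand, was found in 27 of the 35 windows (77.1%), against 19.2% of all 32851 windows of that length. CCAAT on either strand was found in 27 of the 35 (77.1%), against 37.4% of all windows. Both motifs together stood in 24 windows (68.6%), against 7.53% of all windows, and 2 or more CCAAT boxes in 19 (54.3%), against 11.7%. Neither motif searched holds the other, though neighbouring matches can share a base, and how often they did was not counted. A match is a match of letters, not a site shown to be bound. The 2 windows of Ect2 overlap almost wholly, as do the 2 of Prc1, so the same sites are counted in both. The 37 CHR matches had a median centre 5 bases after the start, and 29 lay within 100 bases of it. The 66 CCAAT matches had a median centre 62.5 bases before the start (-62.5), with 48 within 100 bases. In Ccnb1, the gene with the largest slope below, the window held 2 CCAAT boxes and no match to the CHR letters.

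**Figure D1:**
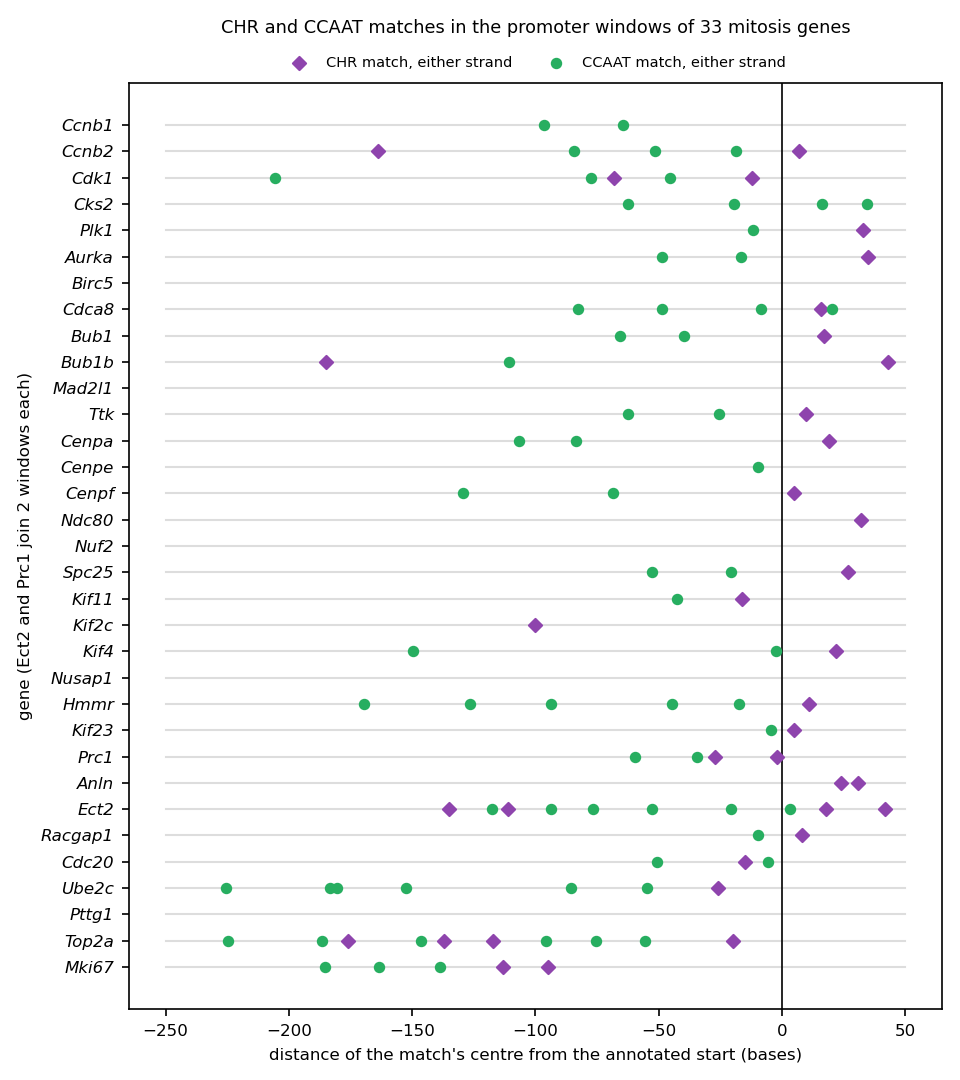
Position of each CHR match (diamonds) and CCAAT match (circles) in the promoter windows of 33 mitosis genes, in bases from the annotated start (vertical line); grey lines are the windows. CCAAT matches lie mostly before the start, with a median centre at -62.5, and CHR matches close to it, with a median centre at 5.

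The values are the authors' normalized signal, whose scale the labels do not give; the column totals differed by 0.0252%, and the number of reads behind a library is unknown. Because it is also not known whether the signal is per length, levels are compared between libraries and not between genes. The signals of the 40 genes lay between 119 (Cdc25c) and 18599 (Mki67), so none was near the floor of the table, and all 40 passed the filter on low values (a mean of at least 20). The targets of the hairpins moved with their labels: Hnrnpk itself had 11349, 17016 and 12793 under its own hairpin on days 6, 9 and 12, against 31243, 26944 and 23376 in the luciferase arm. Trp53cor1 had 90.5, 122 and 97 in the lincRNA-p21 arm, against 286.5, 237 and 250. Trp53cor1 was also low in the Hnrnpk arm, at 131, 137 and 119.5.

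The mitosis genes stood in opposite orders early and late. On day 6 all 40 were below the luciferase library in the Hnrnpk library and 37 in the lincRNA-p21 library; on day 12 all 40 were above it in both. The crossing had happened by day 9, when 39 of 40 were above luciferase in each knockdown arm. In the order of the arms, 31 of 40 genes ran Hnrnpk below lincRNA-p21 below luciferase on day 6, and the reverse held for 36 genes on day 9 and 31 on day 12. The mean log2 level of the 40 genes, each centred on its own mean over the libraries, was -0.29, 0.34 and 0.17 on days 6, 9 and 12 in the Hnrnpk arm, -0.06, 0.18 and 0.004 in the lincRNA-p21 arm, and 0.35, -0.10 and -0.61 in the luciferase arm. The SDs over the 40 genes ran between 0.13 and 0.34. The luciferase arm thus held both the highest and the lowest mean of the 9 libraries, and the lincRNA-p21 arm the narrowest range.

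**Figure D2:**
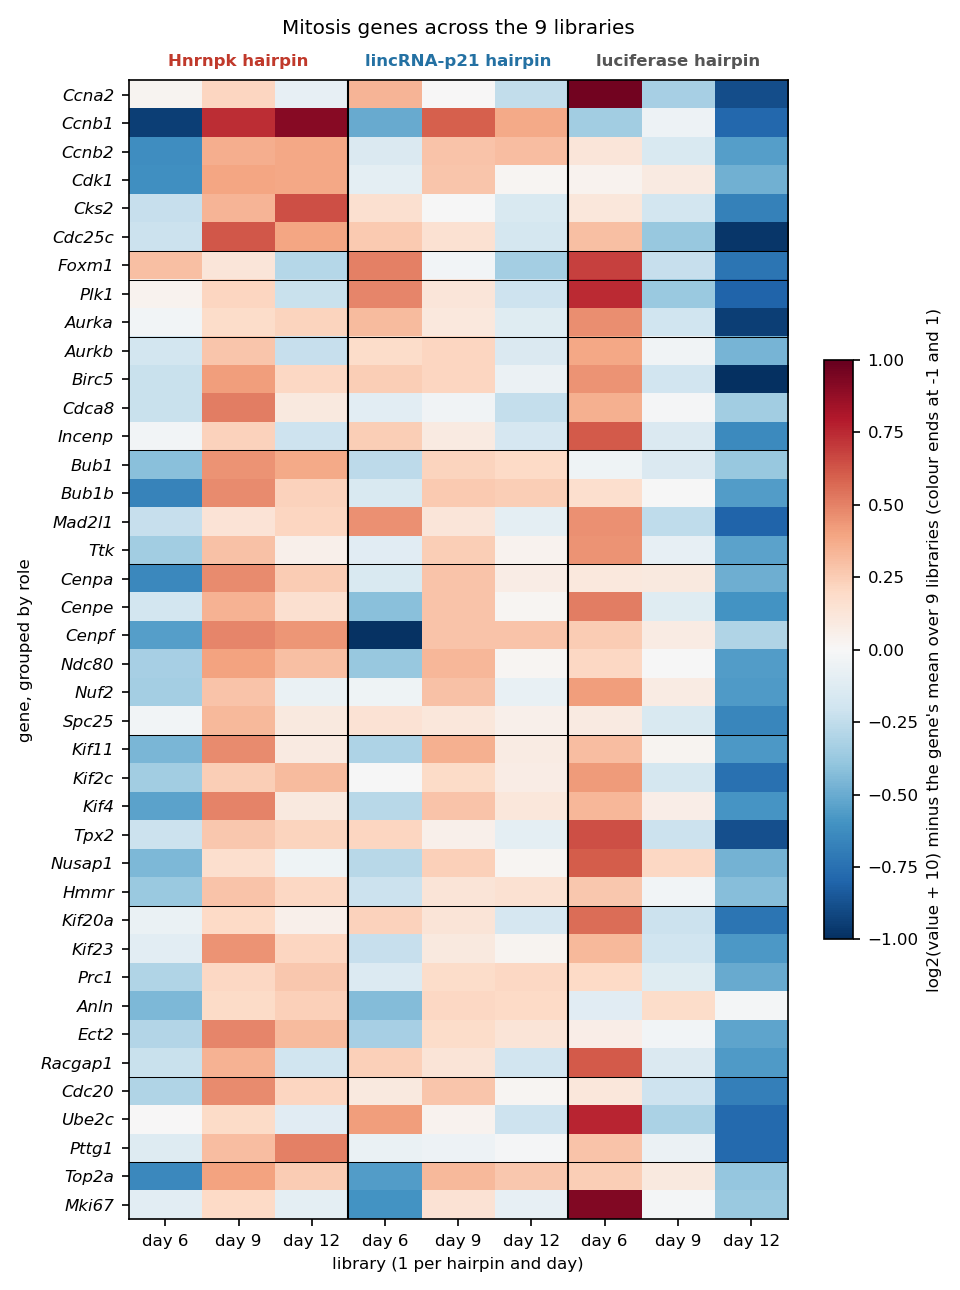
Each row is 1 of the 40 mitosis genes, grouped by role, and each column 1 library; colour gives log2(signal + 10) minus the gene's mean over the 9 libraries. The luciferase libraries are above most genes' means on day 6 (mean 0.35) and below them on day 12 (mean -0.61), while the Hnrnpk libraries are below on day 6 (mean -0.29) and above on days 9 and 12 (means 0.34 and 0.17).

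Within a day a knockdown library was set against the luciferase library of that day, with no test, as log2 differences after adding 10. For the Hnrnpk arm the median difference of the 40 genes was -0.66, 0.42 and 0.76 on days 6, 9 and 12, while the median over all 12541 genes tested was -0.02, 0.006 and -0.02. On day 6, 2 of the 40 genes were at least 2-fold lower in the Hnrnpk library (Nusap1 and Mki67), or 5%, against 2.08% of all genes. At least 2-fold higher were 1 gene on day 9 (2.5%, against 2.54% of all genes) and 9 on day 12 (22.5%, against 3.76%). For the lincRNA-p21 arm the medians were -0.35, 0.27 and 0.60, with 2 genes at least 2-fold lower on day 6 (Mki67 and Cenpf; 0.773% of all genes) and 2 at least 2-fold higher on day 12 (Ccnb1 and Birc5; 1.2% of all genes). Lower on day 6 and higher on both later days was the pattern of 39 of 40 genes in the Hnrnpk arm, against 14.8% of all genes tested, and of 36 of 40 in the lincRNA-p21 arm, against 14.5%. The exception in the Hnrnpk arm was Nusap1, a microtubule-binding spindle protein, which was 0.04 below luciferase on day 9 (-0.04). The 4 exceptions in the lincRNA-p21 arm were Spc25, Cks2 and Mad2l1, which were level with or just above luciferase on day 6 (0.06, 0.05 and 0.01), and Cdca8, which was just below it on day 9 (-0.03). Both knockdown arms are compared with the same 3 luciferase libraries, so their differences are not independent of each other.

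**Figure D3:**
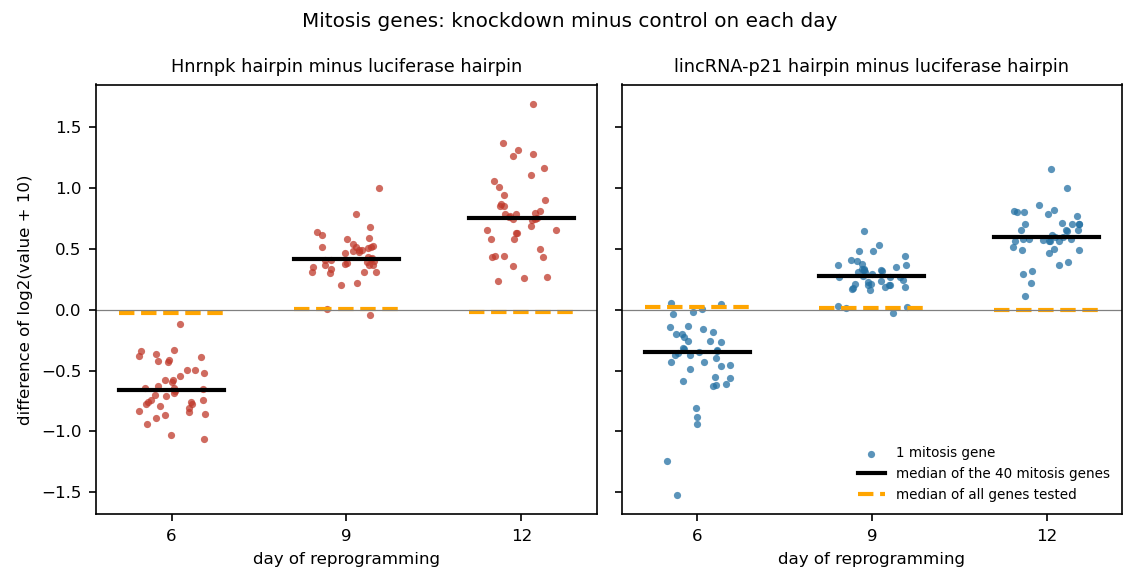
Each point is 1 mitosis gene: the log2 difference of the Hnrnpk arm (left) or the lincRNA-p21 arm (right) from the luciferase arm on days 6, 9 and 12. Black bars are the medians of the 40 genes (-0.66, 0.42 and 0.76 on the left, -0.35, 0.27 and 0.60 on the right) and dashed bars the medians of all 12541 genes tested, which stay near 0.

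Averaged over the days these differences cancelled in part. In a limma fit on arm plus day, none of the 40 genes passed an adjusted p of 0.05 for the Hnrnpk against the luciferase arm, where 12.5% of all genes tested did in either direction; 1 had an unadjusted p under 0.05, against 29.4% of all genes. The differences were positive for 35 genes and negative for 5, with a median of 0.16 and a range of -0.22 (Nusap1) to 0.63 (Ccnb1), and the lowest adjusted p was 0.166 in limma, for the kinetochore gene Spc25. For lincRNA-p21 against luciferase none passed, where 0.00797% of all genes did, and none had an unadjusted p under 0.05, against 13.8% of all genes; 35 differences were positive, with a median of 0.15. The lincRNA-p21 arm set against the Hnrnpk arm likewise gave no call, where 3.26% of all genes passed, no unadjusted p under 0.05 (19% of all genes), and 21 positive and 19 negative differences. The error of these tests comes from day-to-day variation of the arm difference, which the crossing itself makes large. With day 6 left out, limma called 35 of the 40 genes higher and none lower in the Hnrnpk arm over days 9 and 12 (median 0.59), where 11.7% of all genes tested were called higher. That fit has 2 residual degrees of freedom. Day 6 is the day on which all 40 were below luciferase in the Hnrnpk library. Leaving it out takes the crossing out of the error, so the count is no support independent of the values above. Leaving out the luciferase library of day 6 alone gave 20 higher calls, where 7.82% of all genes were called higher in that fit, and leaving out the Hnrnpk library of day 6 alone gave 4, where 6.67% were. In the lincRNA-p21 arm the fit without day 6 called 2, Cdc20 (0.59, adjusted p = 0.0488) and Plk1 (0.54, adjusted p = 0.0485), where 0.702% of all genes were called higher, while 35 had an unadjusted p under 0.05, against 20.8% of all genes, and the median was 0.45.

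What was tested is a slope: the change of a knockdown arm's log2 difference from luciferase per 3 days. A called slope means that the difference changed over the days. Whether its sign changed was not tested. The slope was fitted by limma with 2 residual degrees of freedom. The error of this fit is how far the arm differences depart from a straight line over days 6, 9 and 12. A slope is thus judged against that departure, moderated over genes, and not against replicates. For the Hnrnpk arm 33 of the 40 genes had a slope called higher and none a slope called lower, where 5.06% of all genes tested were called higher and 4.3% lower. All 40 slopes were positive, from 0.30 (Anln) to 1.14 (Ccnb1), with a median of 0.71, against -0.01 over all genes. The 7 genes not called were Aurkb, Mki67, Anln, Cdca8, Spc25, Foxm1 and Racgap1. For lincRNA-p21 all 40 slopes were positive too, from 0.24 (Cks2) to 0.91 (Cenpf), with a median of 0.53; limma called none of them, where 0% of all genes tested passed, and 37 had an unadjusted p under 0.05, against 16.8% of all genes (lowest adjusted p 0.153). Setting the lincRNA-p21 slope against the Hnrnpk slope gave no call either, where again 0% of all genes passed, with 11 genes at an unadjusted p under 0.05, against 14.5% of all genes, and a median difference of slopes of -0.19. Without the Hnrnpk library of day 9 it called 5 genes lower, where 1.26% of all genes were, and without that of day 12 it called 1, where 0.359% were. The Hnrnpk count changed with the library left out. Each of those fits has fewer than 2 residual degrees of freedom, and the lincRNA-p21 arm shares the fit's residual spread. The count was 0 without the Hnrnpk library of day 6, 0 without the luciferase library of day 6, and 0 without any 1 of the 3 lincRNA-p21 libraries. It was 35 to 40 without any other library. The part of the lost degrees of freedom in the counts of 0 was not tested. Of all genes tested, 0% to 0.223% were called higher in the fits that gave 0, and 3.3% to 11.3% in the others. The lincRNA-p21 count was 29 without any 1 Hnrnpk library, 25 without the luciferase library of day 9, 20 without that of day 12 and 0 without any other library. In the fits that gave calls, 1.83% to 3.22% of all genes were called higher.

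**Figure D4:**
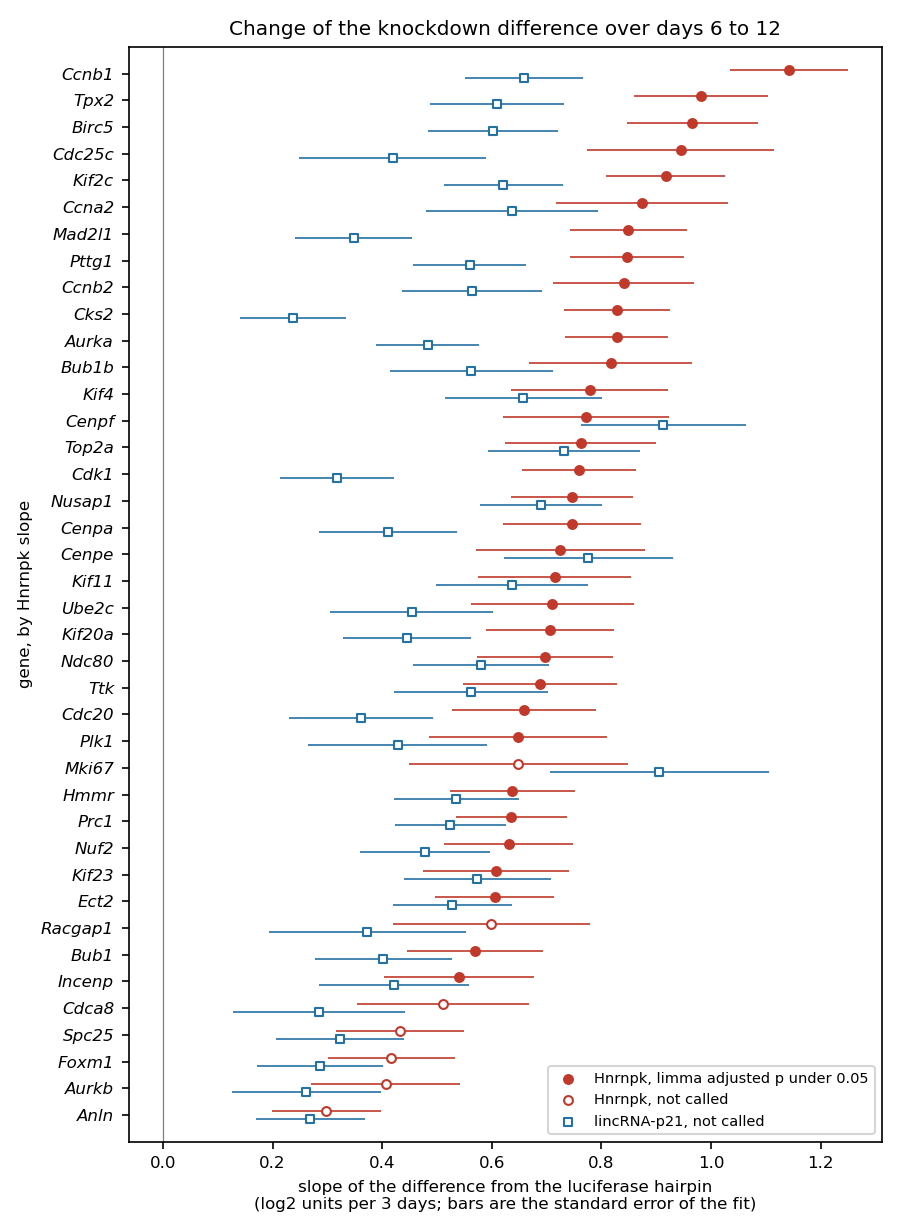
Slope of each gene's log2 difference from the luciferase arm, per 3 days, for the Hnrnpk arm (circles, filled where the limma adjusted p is under 0.05) and the lincRNA-p21 arm (squares); bars are the standard error of the fit. All slopes are positive; those of the Hnrnpk arm run between 0.30 and 1.14 and those of the lincRNA-p21 arm between 0.24 and 0.91.

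Among the genes that start mitosis, all 6 (the cyclins Ccna2, Ccnb1 and Ccnb2, the kinase Cdk1, its subunit Cks2 and its activating phosphatase Cdc25c) had a called Hnrnpk slope. Ccnb1 (chr13:100778650-100786570), the B-type cyclin that activates Cdk1 at mitotic entry, had a signal of 1748, 5629 and 6324 on days 6, 9 and 12 in the Hnrnpk arm, 2365, 5099 and 4367 in the lincRNA-p21 arm, and 2640, 3247.5 and 1950 in the luciferase arm. It was the lowest of the 3 arms in the Hnrnpk library on day 6 and the highest on days 9 and 12. Its Hnrnpk slope of 1.14 ± 0.11 (SE) was the largest of the 40, with a limma adjusted p of 0.0167, against 0.66 ± 0.11 for lincRNA-p21 (adjusted p = 0.153).

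Cdk1, the kinase itself, had 1516, 3057 and 3038 in the Hnrnpk arm over the 3 days, 2166.5, 2822.5 and 2349.5 in the lincRNA-p21 arm, and 2382.5, 2470 and 1659 in the luciferase arm. The Hnrnpk library of day 6 was the lowest of the 9, and the Hnrnpk slope was 0.76 ± 0.10 (limma adjusted p = 0.018). Ccna2, the A-type cyclin of S phase and early mitosis, had 2984.5, 3400 and 2769 in the Hnrnpk arm, 3702.5, 2931 and 2470 in the lincRNA-p21 arm, and 5726, 2330.5 and 1576 in the luciferase arm. Here the luciferase arm moved most, and the Hnrnpk arm stayed within a narrow range; the Hnrnpk slope was 0.87 ± 0.16 (limma adjusted p = 0.0236). Cks2, the small subunit that binds Cdk1, had 1132.5, 1681 and 2078 in the Hnrnpk arm, 1483.5, 1326.5 and 1193 in the lincRNA-p21 arm, and 1437, 1168 and 829 in the luciferase arm. It was the gene in which the knockdown arms differed most in slope, 0.24 for lincRNA-p21 and 0.83 for Hnrnpk, a difference of -0.59 ± 0.10 that limma did not call (adjusted p = 0.241).

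Foxm1 (chr6:128362967-128376146), the transcription factor of the late cell cycle, had 1948, 1725.5 and 1299 on days 6, 9 and 12 in the Hnrnpk arm, 2247, 1549 and 1249 in the lincRNA-p21 arm, and 2551, 1347 and 950.5 in the luciferase arm. It was the only 1 of the 40 genes that was highest on day 6 in the Hnrnpk arm, and it declined at each step in all 3 arms. The knockdown arms were below luciferase on day 6 and above it later, but the Hnrnpk slope of 0.42 ± 0.12 was not called by limma (adjusted p = 0.0611). With day 6 left out, its difference in the Hnrnpk arm was 0.40 ± 0.09 (limma adjusted p = 0.0261).

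Both mitotic kinases had a called Hnrnpk slope. Plk1, the Polo-like kinase of centrosomes and kinetochores, had 1878.5, 2130.5 and 1575 in the Hnrnpk arm, 2582, 1994.5 and 1594 in the lincRNA-p21 arm, and 3083.5, 1421 and 1047.5 in the luciferase arm. Aurka, the Aurora kinase of centrosomes and spindle poles, had 1666, 1936 and 1984.5 in the Hnrnpk arm, 2124, 1834.5 and 1564.5 in the lincRNA-p21 arm, and 2345.5, 1477.5 and 879.5 in the luciferase arm. Day 12 therefore left Aurka more than 2-fold higher in the Hnrnpk library (a log2 difference of 1.16), while Plk1 was close in both knockdown arms (0.58 for Hnrnpk and 0.60 for lincRNA-p21). The Hnrnpk slopes were 0.83 ± 0.09 for Aurka (limma adjusted p = 0.0167) and 0.65 ± 0.16 for Plk1 (limma adjusted p = 0.0485). Aurka was no longer called with a step after day 6 in place of the slope (limma adjusted p = 0.0508), nor Plk1 without the intensity trend (limma adjusted p = 0.0848).

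In the chromosomal passenger complex, which corrects faulty attachments and later guides cytokinesis, all 4 Hnrnpk slopes were positive, and those of Birc5 and Incenp were called. With a step after day 6 in place of the slope, limma called all 4, Aurkb (adjusted p = 0.0311) and Cdca8 (adjusted p = 0.0245) included. Birc5 (survivin) had 1172, 1833.5 and 1577 in the Hnrnpk arm, 1623.5, 1591.5 and 1315 in the lincRNA-p21 arm, and 1868, 1194 and 651 in the luciferase arm. Aurkb, the kinase of the complex, had 1137.5, 1570 and 1106 in the Hnrnpk arm, 1475.5, 1503 and 1172.5 in the lincRNA-p21 arm, and 1699, 1267 and 936.5 in the luciferase arm. The arms were far apart on day 12 for Birc5 and close for Aurkb. Birc5 had an Hnrnpk slope of 0.97 ± 0.12 (limma adjusted p = 0.0167) and Aurkb one of 0.41 ± 0.14 (limma adjusted p = 0.0963). Incenp, the scaffold of the complex, had 2386.5, 2856 and 2112.5 in the Hnrnpk arm, 2884, 2594.5 and 2164 in the lincRNA-p21 arm, and 3737, 2202 and 1559.5 in the luciferase arm, with a slope of 0.54 ± 0.14 at the edge of the threshold (limma adjusted p = 0.049). The slopes of the members were not tested against each other.

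All 4 spindle checkpoint genes (Bub1, Bub1b, Mad2l1 and the kinase Ttk) had a called Hnrnpk slope, with a median of 0.75. Bub1b, a subunit of the complex that inhibits Cdc20, had 1635, 3616 and 3057.5 in the Hnrnpk arm, 2347, 3129 and 3082 in the lincRNA-p21 arm, and 2934, 2597 and 1760 in the luciferase arm. Bub1, the checkpoint kinase at kinetochores, had 906.5, 1660 and 1584.5 in the Hnrnpk arm, 1010.5, 1422.5 and 1398 in the lincRNA-p21 arm, and 1180, 1098.5 and 930 in the luciferase arm. In both genes the libraries of the knockdown arms were higher on days 9 and 12 than on day 6, while those of the luciferase arm were lower. Mad2l1, which holds Cdc20 inactive, had the largest slope of the 4, at 0.85 ± 0.11 (limma adjusted p = 0.0167), and its lincRNA-p21 library of day 6 was level with luciferase (1719 against 1710.5).

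Of the 6 centromere and kinetochore genes (Cenpa, Cenpe, Cenpf, Ndc80, Nuf2 and Spc25), 5 had a called Hnrnpk slope, all but Spc25. Cenpf (chr1:189640606-189688086), a large kinetochore protein of late G2 and mitosis, had 1343, 2769 and 2675 in the Hnrnpk arm, 990.5, 2405.5 and 2403 in the lincRNA-p21 arm, and 2357.5, 2084 and 1601.5 in the luciferase arm. On day 6 it was lowest in the lincRNA-p21 library, 1.24 below luciferase on the log2 scale (-1.24), and its lincRNA-p21 slope of 0.91 ± 0.15 was the largest of that arm (limma adjusted p = 0.153). The Hnrnpk slope was 0.77 ± 0.15 (limma adjusted p = 0.0268, and 0.0545 without the intensity trend). Spc25, a subunit of the Ndc80 complex that binds microtubules, had 475.5, 609 and 520 in the Hnrnpk arm, 537, 525.5 and 503 in the lincRNA-p21 arm, and 515.5, 433.5 and 305 in the luciferase arm. Its day 6 libraries lay close together, so it differed between the arms mainly on the later days, with an Hnrnpk slope of 0.43 ± 0.12 (limma adjusted p = 0.0569).

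The 6 spindle motors and assembly factors (Kif11, Kif2c, Kif4, Tpx2, Nusap1 and Hmmr) all had a called Hnrnpk slope. Tpx2, which activates Aurora A and nucleates microtubules near chromosomes, had 2847, 3983 and 3853 in the Hnrnpk arm, 3824, 3419 and 3085 in the lincRNA-p21 arm, and 5165, 2836 and 1785.5 in the luciferase arm. Kif4, a chromosome-bound motor, had 696, 1429.5 and 1086 in the Hnrnpk arm, 834.5, 1236 and 1098 in the lincRNA-p21 arm, and 1279, 1063.5 and 670 in the luciferase arm. Tpx2 had the largest slope of the 6, at 0.98 ± 0.12 (limma adjusted p = 0.0167), and Kif4 had 0.78 ± 0.14 (limma adjusted p = 0.0245). Nusap1 had a slope of 0.75 ± 0.11 (limma adjusted p = 0.0195), with a log2 difference of -1.06 on day 6; over days 9 and 12 its difference was 0.20 ± 0.13 and not called (limma adjusted p = 0.317).

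For cytokinesis, 4 of 6 genes had a called Hnrnpk slope: the motors Kif20a and Kif23, the bundling protein Prc1, and Ect2, but not Anln or Racgap1. Kif23, the motor of the centralspindlin complex, had 1129, 1657.5 and 1414 in the Hnrnpk arm, 1034, 1297 and 1235 in the lincRNA-p21 arm, and 1520, 1058 and 814 in the luciferase arm. Anln (chr9:22332012-22389188), the anillin of the contractile ring, had 3876.5, 6041 and 6264 in the Hnrnpk arm, 3924.5, 6124 and 6092 in the lincRNA-p21 arm, and 4888, 6010 and 5221 in the luciferase arm. Kif23 separated the arms, whereas the arms nearly coincided for Anln on day 9. Kif20a had the largest slope of the group at 0.71 ± 0.12 (limma adjusted p = 0.0223), and Anln the smallest of the 40 at 0.30 ± 0.10 (limma adjusted p = 0.0944).

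The partners of the anaphase-promoting complex, Cdc20 and Ube2c, and its substrate securin (Pttg1) all had a called Hnrnpk slope. Pttg1, which holds separase inactive until anaphase, had 708, 962 and 1101.5 in the Hnrnpk arm, 738, 749 and 768 in the lincRNA-p21 arm, and 944, 742 and 447 in the luciferase arm. The lincRNA-p21 libraries of Pttg1 hardly differed over the days, while those of the Hnrnpk arm were higher and those of the luciferase arm lower with each day. Ube2c, the ubiquitin-conjugating enzyme of the complex, had 2629, 2989 and 2419 in the Hnrnpk arm, 3514, 2689 and 2264 in the lincRNA-p21 arm, and 4462, 2103 and 1528 in the luciferase arm. The slopes were 0.85 ± 0.10 for Pttg1 (limma adjusted p = 0.0167, and 0.0762 for a step after day 6), 0.71 ± 0.15 for Ube2c (limma adjusted p = 0.0317) and 0.66 ± 0.13 for the activator Cdc20 (limma adjusted p = 0.0287).

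Top2a, the topoisomerase that untangles sister chromatids, had 5286.5, 10949.5 and 9840 in the Hnrnpk arm, 5599, 10363.5 and 9997 in the lincRNA-p21 arm, and 9793, 8844.5 and 6330 in the luciferase arm. Mki67 (chr7:135689784-135716361), the proliferation marker that coats mitotic chromosomes, had 9130, 11284 and 9136 in the Hnrnpk arm, 6483, 10848.5 and 9275 in the lincRNA-p21 arm, and 18599, 9660 and 7575.5 in the luciferase arm. In these genes the knockdown arms ran close together on days 9 and 12 and the day 6 gap to luciferase was wide: on the log2 scale it was -0.89 and -0.81 for Top2a and -1.03 and -1.52 for Mki67, for the Hnrnpk and the lincRNA-p21 library in that order. Top2a had a called Hnrnpk slope of 0.76 ± 0.14 (limma adjusted p = 0.0236). Mki67 did not, at 0.65 ± 0.20 (limma adjusted p = 0.0794), and its lincRNA-p21 slope was larger, at 0.91 ± 0.20 (limma adjusted p = 0.155), with a difference between the arms that was not called (0.26 ± 0.20, limma adjusted p = 0.581).

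**Figure D5:**
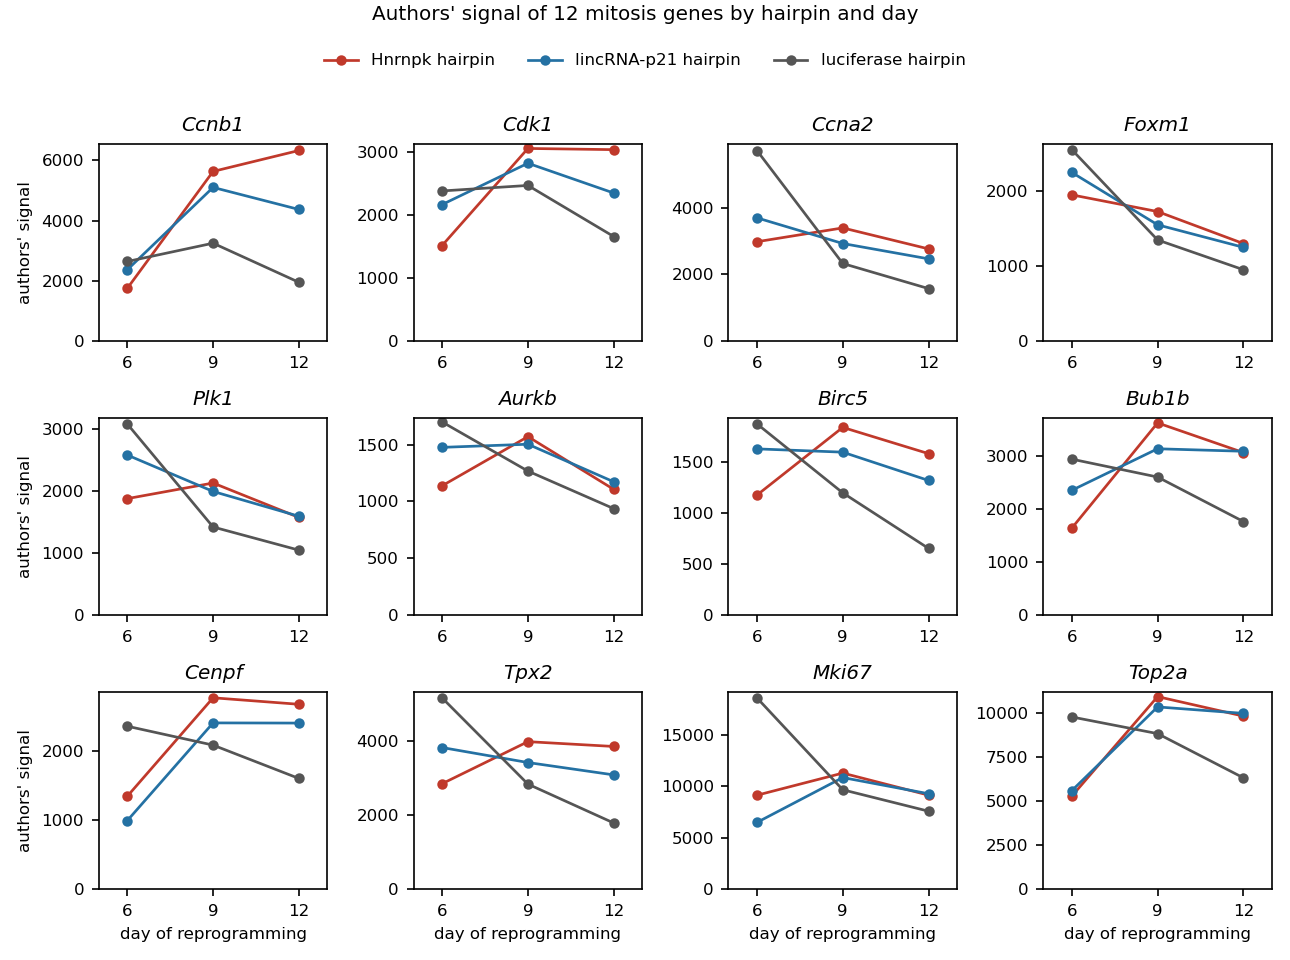
Authors' signal of 12 mitosis genes on days 6, 9 and 12 in the Hnrnpk arm (red), the lincRNA-p21 arm (blue) and the luciferase arm (grey), 1 library per point, with each vertical axis starting at 0. In all 12 the luciferase library is the highest of the 3 arms on day 6 and the lowest on day 12.

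The time course differed in shape between the arms. The luciferase arm was lower at both steps in 37 of 40 genes, and its median change was -0.35 between days 6 and 9, -0.50 between days 9 and 12 and -0.91 over the whole span, with 17 genes at least 2-fold lower on day 12 than on day 6, against 8.1% of all genes. The Hnrnpk arm was higher on day 9 than on day 6 in 39 genes (median 0.62) and lower on day 12 than on day 9 in 31 (median -0.21), ending above its day 6 level in 34. The lincRNA-p21 arm lay between, with 26 genes higher on day 9 (median 0.33), 36 lower on day 12 than on day 9 (median -0.22) and a median of 0.09 over the whole span. The highest library of an arm was that of day 9 for 30 genes in the Hnrnpk arm and 22 in the lincRNA-p21 arm, and that of day 6 for 37 genes in the luciferase arm; the other 3 (Ccnb1, Cdk1 and Anln) peaked there on day 9.

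Averaged over the arms, few of the 40 genes passed a test between days. Day 9 was called higher than day 6 by limma for 2 genes, where 18.9% of all genes tested were higher, and lower for 1, where 21% were lower. The higher ones were Ccnb1 (1.03, adjusted p = 0.0395 in limma) and Anln (0.53, adjusted p = 0.0129 in limma), and the lower one was Foxm1 (-0.54, adjusted p = 0.0248 in limma). Day 12 against day 9 gave no call in limma, where 0.654% of all genes passed; 2 had an unadjusted p under 0.05, against 14.1% of all genes, and all 40 were lower on day 12, with a median of -0.30 against -0.03 over all genes. Day 12 was higher than day 6 for Anln alone (0.47, adjusted p = 0.0157 in limma), where 22.3% of all genes were higher. It was lower for 5, where 27% were lower: Foxm1 (-0.95, adjusted p = 0.00146 in limma), Plk1 (-0.83, adjusted p = 0.0162), Ube2c (-0.76, adjusted p = 0.0269), Incenp (-0.61, adjusted p = 0.0304) and Ccna2 (-0.85, adjusted p = 0.0364). Leaving out the luciferase library of day 6 raised the higher calls to 22 for day 9 (21.3% of all genes in that fit) and 15 for day 12 (22.3%), and leaving out the Hnrnpk library of day 6 gave 5 lower calls (19.1% of all genes) and 14 (26.4%). Of these genes, Foxm1 on day 12 against day 6 alone kept its call without any 1 library, arm or day that was left out.

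Across the 9 libraries the 40 genes varied together, as a description over libraries that share arms, days and the authors' scaling. The median Pearson r over the 780 pairs was 0.73, with 764 pairs above 0 and 628 above 0.5, and the range ran from -0.58 to 0.99. The gene nearest to the mean of the 40 was Kif2c, a microtubule-depolymerizing kinesin (r = 0.98), and the farthest were Anln (r = 0.37) and Foxm1 (r = 0.52). Split by the CHR alone, the median Hnrnpk slope was 0.69 over the 25 genes with a CHR match in a promoter window. It was 0.84 over the 8 genes whose windows held no CHR match, some of which, such as Ccnb1, held CCAAT. The difference was not tested.

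Mitosis genes outside the 40 were read in the same fits. Of 82 such genes in the table, 42 had a called Hnrnpk slope, all higher, where 5.06% of all genes tested were called higher. The median slope of the 82 was 0.52. The largest were those of Spc24 (1.02), the partner of Spc25 in the Ndc80 complex, Cenpw (0.998), a centromere protein, and Depdc1b (0.96). With day 6 left out 41 of the 82 were called higher in the Hnrnpk arm and 1 lower (median 0.39). In that fit 11.7% of all genes tested were called higher and 12.2% lower. The lincRNA-p21 slopes of the 82 had a median of 0.40 with none called, where 0% of all genes passed. Averaged over the days, limma called none higher and 1 lower in the Hnrnpk arm: Cdc25b, a phosphatase that activates Cdk1 at the centrosome (-0.50, adjusted p = 0.0112). Of all genes tested, 5.58% were called higher in that comparison and 6.94% lower. The core subunits of the anaphase-promoting complex gave smaller values, with 3 of 15 Hnrnpk slopes called higher and a median of 0.21. The MuvB, DREAM and B-Myb genes gave 2 of 12, E2f4 and Mybl2 (B-Myb), with a median of 0.23. Both counts stand beside the 5.06% of all genes tested that had a slope called higher. The differences between these lists were not tested.

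Markers of cell types moved over the same libraries. The summed signal of 8 pluripotency genes (Utf1, Dnmt3l, Nanog, Lin28a, Esrrb, Dppa5a, Tdgf1 and Zfp42) was 205, 4292 and 9555.5 on days 6, 9 and 12 in the Hnrnpk arm, 190.5, 1647.5 and 5683.5 in the lincRNA-p21 arm, and 209.5, 530 and 689 in the luciferase arm. That of 6 epithelial genes was 3779.5, 16393 and 30455.5 in the Hnrnpk arm, 2033, 7925 and 13653 in the lincRNA-p21 arm, and 3285, 10191 and 13637 in the luciferase arm. That of 12 fibroblast genes was highest on day 6 in both knockdown arms (402013 and 419823, against 354100 in the luciferase arm) and ran between 235952 and 363261 on the later days in all arms. Of 7 macrophage markers only Cd68 was in the table (120.5 to 780), and of 4 endothelial markers only Tek (2074 to 3141). All 12 fibroblast markers listed were in the table, for cells labelled MEF. The part of these markers in the values of the mitosis genes was not tested.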

How the data were processed

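Total RNA (TRIzol) was made into Illumina libraries by the authors, 1 for each hairpin and day (9 in all), per the labels' protocols. Per the submitters' processing notes, RSEM 1.2.12, Bowtie 1.0.1 and mm10 were used; their roles, the scaling and the depth are not given in the sources used here. Deposited was the authors' normalized signal for 12550 genes, in steps of 0.5, with equal highest values (118715) in all columns; equal totals hide any change shared by all genes. All 40 gene names matched. The members and all lists were chosen with earlier results of these data known, and no list is independent support. From the signal, log2(value + 10) was computed, genes with a mean under 20 were left out (9 of 12550), and the rest were fitted with limma 3.58.1 in R 4.3.3 with an intensity trend: arm plus day (4 residual degrees of freedom), or arm-specific slopes over days (2), adjusted by Benjamini-Hochberg over 12541 genes at 0.05. With 1 library per arm and day, no p-value measures the spread over replicates. In the arm plus day fits, p-values measure how differences vary over days or arms. In the slope fits they measure a slope against the departure of the arm differences from a straight line over the days. Fits with libraries left out have fewer residual degrees of freedom than the full fits. Fold changes on the log2(value + 10) scale understate those of low genes.

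Per-library values are given for 8 fixed genes and for the genes that lead each role in the arm and day comparisons. Those comparisons are Hnrnpk against luciferase and day 9 against day 6. Genes with the largest slope of a role are not all among them: Mad2l1 and Kif20a are not given in full. Cks2 was added after its values were seen. Gene coordinates are GENCODE M21 (mm10), and promoter windows are those of RefSeq (GRCm38.p6). The fits were tested on simulated data with known changes. Alternatives were other pseudocounts, filters, scalings and fits, and leaving out each library, arm or day.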

Additional observations from a re-analysis of the deposited data

Results flagged for a closer look

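The Hnrnpk arm differed from the luciferase arm in opposite directions early and late, and its slope over the days was called by limma for 33 of the 40 genes, which puts these results here. In each role the gene with the largest called slope (log2 units per 3 days) was Ccnb1 (1.14), Aurka (0.83), Birc5 (0.97), Mad2l1 (0.85), Cenpf (0.77), Tpx2 (0.98), Kif20a (0.71), Pttg1 (0.85) and Top2a (0.76). No group holds more than 1 library, so samples far from others of their group could not be looked for.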

How the results depend on the processing

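Over other pseudocounts, filters, scalings, fits without an intensity trend and a step after day 6 in place of the slope, the count of called Hnrnpk slopes ran between 23 and 35, against 33. The step gave 35, where 3.96% of all genes were called higher, and the main slope 33, where 5.06% were. Shares for the other settings are not given here. A step, chosen after seeing the data, gave medians of 1.27 for Hnrnpk and 0.82 for lincRNA-p21, since it spans the whole change rather than 3 days; limma no longer called Aurka (adjusted p = 0.0508), Cks2 (0.0521) and Pttg1 (0.0762), and called Aurkb, Mki67, Cdca8, Foxm1 and Racgap1. Without the intensity trend 1 gene was higher on day 9 than on day 6, and Plk1, Cenpf and Ccnb1 (day 9) were no longer called. With only the 6 libraries compared, 7 were lower on day 12 than on day 9, and 0 higher and 2 lower on day 12 than on day 6. The cause of these changes was not tested. The share of all genes called in these fits is not given here, so the counts are not read as a trait of the 40 genes. Leaving out 1 library, arm or day moved the Hnrnpk slope calls over 0 to 40 (median 0.41 to 0.99), the lincRNA-p21 slope calls over 0 to 29 (0.23 to 0.77) and calls of a lower lincRNA-p21 than Hnrnpk slope over 0 to 5 (-0.48 to 0.12). Where these counts were highest, 11.3% of all genes were called higher for Hnrnpk, 3.1% to 3.22% higher for lincRNA-p21, and 1.26% lower for the difference of slopes. Higher calls ran over 0 to 35 for Hnrnpk against luciferase (-0.13 to 0.59) and 0 to 2 for lincRNA-p21 against luciferase (-0.08 to 0.50). At the highest counts, 11.7% and 0.702% of all genes were called higher. For day 9 against day 6 the higher calls ran over 0 to 22 (-0.10 to 0.50) and the lower calls over 0 to 5. At the highest counts, 21.3% of all genes were higher and 19.1% lower. For day 12 against day 6 the higher calls ran over 0 to 16 (-0.42 to 0.28) and the lower calls over 1 to 14. At the highest counts, 21.3% of all genes were higher and 23.2% or 26.4% lower. The medians ran over -0.50 to -0.042 for day 12 against day 9 and -0.28 to 0.18 for lincRNA-p21 against Hnrnpk. Day is a term of the arm fit, so the arms are compared within days. Replicates could not be paired because each arm and day has 1 library.

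The number of merged replicates and of reads is unknown, and no replicate or counting error is given here. The full fits have 4 or 2 residual degrees of freedom, and fits with libraries left out have fewer. The values are relative within each library. The Hnrnpk slope calls were lost without the Hnrnpk or the luciferase library of day 6, and also without any of the lincRNA-p21 libraries. In those fits 0% to 0.223% of all genes were called higher, and the part of the lost degrees of freedom was not tested. Each knockdown shares its 3 control libraries with the other.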
